A study of Mus musculus with 12 samples.

Results

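The neuregulin genes Nrg1, Nrg2 and Nrg3 and the receptor gene Erbb4 were examined for sites bound by SLM2, an RNA-binding protein encoded by Khdrbs3. Peaks were taken from the 2 deposited SLM2 peak lists when their centre lay in the span of a member gene on its strand, in the GENCODE vM21 annotation of mm10. This gave 69 of 2235 peaks: 63 of 2057 in whole brain and 6 of 178 in hippocampus. The lists come from eCLIP, in which UV light links a protein to the RNA it touches, the complex is pulled down with an antibody, and the recovered RNA is sequenced beside a size-matched input library of the same lysate. The groups used here were wild-type whole brain, with 2 eCLIP and 2 input libraries, and wild-type hippocampus, with 2 and 2, all from mice aged 30 days on a C57BL/6J background and cross-linked in 3 exposures of 400 mJ/cm2. A whole-brain lysate held 1 brain and a hippocampal lysate 4 hippocampi, so each library averages over all cell types of its tissue. The 4 libraries of Slm2 KO hippocampus, the negative control of the study, were not analysed here. Each list merges its 2 replicates, so a peak has 1 value per tissue and a count of peaks has no spread between replicates. No test was therefore made, and the intervals beside shares are exact (Clopper-Pearson) 95% binomial intervals that cover counting error only. Tissue, amount of starting material and library preparation differed together and cannot be told apart in any comparison of the tissues.

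Neuregulins are ligands of the epidermal growth factor family, most of them made as membrane-bound precursors that proteases cut, and ErbB4 is a receptor tyrosine kinase that binds them. In the cortex and hippocampus ErbB4 is found mainly in GABAergic interneurons, where neuregulin signals act on the formation of synapses, and NRG3 is a neuron-enriched ligand that works through ErbB4. SLM2 belongs to the STAR family of KH-domain proteins, which bind RNA as dimers and favour short A- and U-rich elements. Its motif is written UWAA, that is UUAA or UAAA in RNA and TTAA or TAAA in the genome sequence, and is called the tetramer below.

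The sequences that follow show what SLM2 peaks of Nrg3 and Erbb4 look like, chosen by fold change, by tetramer content and by tissue. They are read from GRCm38, the assembly of mm10, on the minus strand, which is the strand of both genes, and run 5′ to 3′ with every tetramer in capitals. Peaks are numbered along each gene from its start, separately for each tissue. Peak 44 of Nrg3 (chr14:38903760-38903873) was found in both tissues, peak 45 (chr14:38903514-38903616) had the highest log2 fold change of the gene, peak 55 (chr14:38737954-38738012) the highest after these, and peak 41 (chr14:38907083-38907185) the most tetramers in its window. Hippocampal peak 4 (chr14:39333573-39333748) was the strongest of Nrg3 in hippocampus. For Erbb4, peak 6 (chr1:68798978-68799128) is shown, with the highest fold change but 1 of the gene in whole brain.
Nrg3 whole brain 44: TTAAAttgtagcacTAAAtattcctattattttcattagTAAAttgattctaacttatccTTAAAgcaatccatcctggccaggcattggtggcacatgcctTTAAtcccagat
Nrg3 whole brain 45: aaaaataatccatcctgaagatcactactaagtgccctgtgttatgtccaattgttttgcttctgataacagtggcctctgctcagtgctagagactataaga
Nrg3 whole brain 55: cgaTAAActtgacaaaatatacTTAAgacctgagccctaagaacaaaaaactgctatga
Nrg3 whole brain 41: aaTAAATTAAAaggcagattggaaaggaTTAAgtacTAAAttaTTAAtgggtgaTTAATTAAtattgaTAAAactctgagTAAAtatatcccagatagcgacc
Nrg3 hippocampus 4: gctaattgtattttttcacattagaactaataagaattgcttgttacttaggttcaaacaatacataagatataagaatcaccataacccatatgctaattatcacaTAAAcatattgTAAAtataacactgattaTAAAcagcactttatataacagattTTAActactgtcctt
Erbb4 whole brain 6: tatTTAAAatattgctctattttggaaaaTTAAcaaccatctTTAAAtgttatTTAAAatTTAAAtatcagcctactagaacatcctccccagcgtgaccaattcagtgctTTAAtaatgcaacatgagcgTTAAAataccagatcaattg

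The printed peaks differ widely in tetramer content. Peak 41 of Nrg3 carried 10 tetramer starts in 103 nt and peak 6 of Erbb4 carried 12 in 151 nt, whereas peak 45 of Nrg3 carried none. The window centred on the 5′ end of peak 45 (chr14:38903566-38903666) did hold the tetramer, and it is shown because its 12 starts all lay before the first base of the peak, in a run of TAAA units. This window was chosen after its values were seen.
Nrg3 whole brain 45, window at the 5′ end: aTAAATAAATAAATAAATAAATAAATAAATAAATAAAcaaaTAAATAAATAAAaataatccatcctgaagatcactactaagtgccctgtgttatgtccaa

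SLM2 peaks were found in Nrg3 far more densely than in its relatives of like length. Nrg3 (ENSMUSG00000041014.17, chr14:38368952-39473088, 1104 kb) held 56 whole-brain peaks, Erbb4 (ENSMUSG00000062209.15, chr1:68032186-69108059, 1076 kb) held 6, and Nrg1 (ENSMUSG00000062991.7, chr8:31814551-32884029, 1069 kb) held 0. In hippocampus the same genes held 5, 1 and 0 peaks. Relative to length this was 5.07 whole-brain peaks per 100 kb in Nrg3, which is 9.09 times the 0.558 per 100 kb of Erbb4. With Nrg3 peaks within 100 nt of each other merged, 47 remained in whole brain, or 4.26 per 100 kb. A peak in whole brain was present in 1.92% of 21951 protein-coding genes and in 45.7% of the 230 that span at least 500 kb. In hippocampus these shares were 0.378% and 14.8%. Having a peak was thus common among genes of this size, and it was the number of peaks that set Nrg3 apart. Among the 230 long genes Nrg3 ranked the 5th in peaks per 100 kb and the 4th in number of peaks, although it was only the 43rd in length. Erbb4 ranked the 45th in peaks per 100 kb and the 49th in length. Nrg3 alone contributed 2.72% of all whole-brain peaks and 2.81% of all hippocampal peaks.

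**Figure D1:**
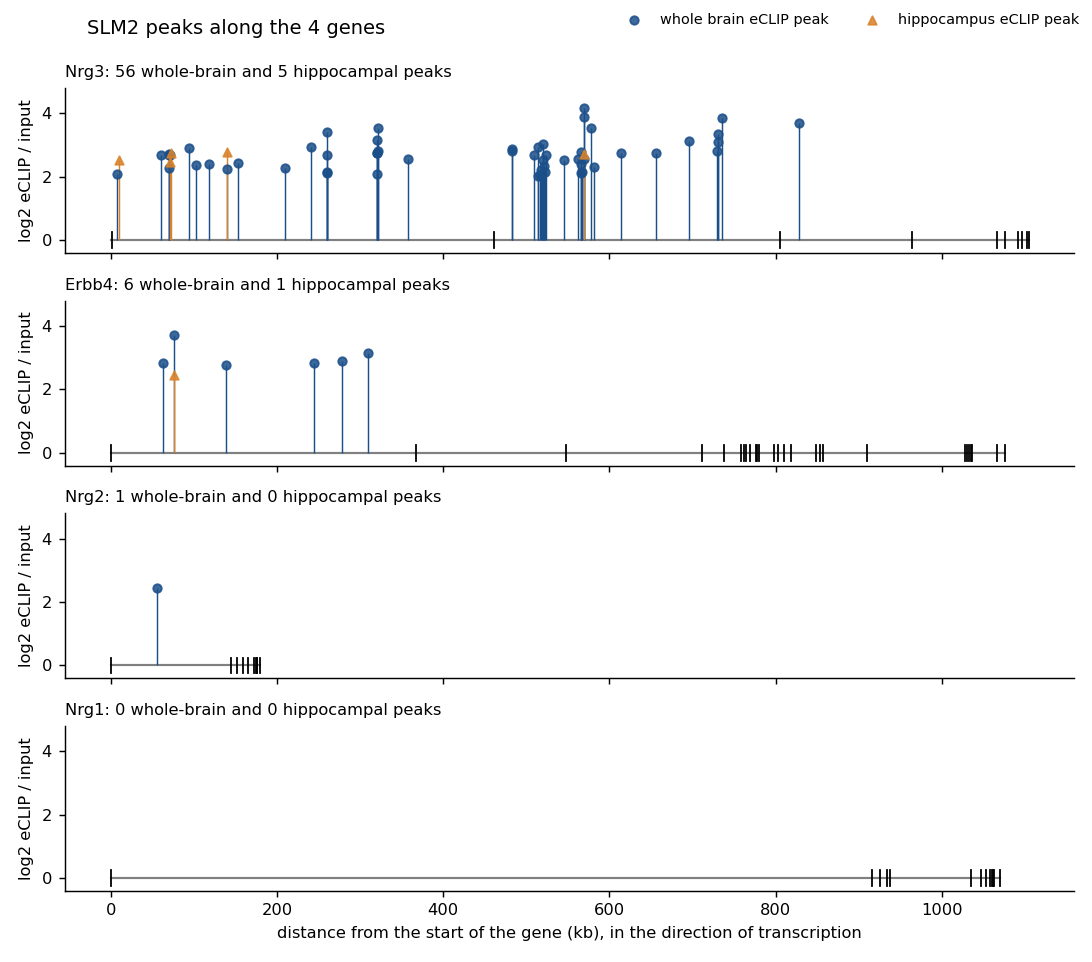
Each panel is 1 gene drawn to the same scale from its start, with black ticks at the exons of its longest protein-coding transcript; each stem is a peak and its height is the log2 fold change of eCLIP over input, as circles for whole brain and triangles for hippocampus. Peaks of Nrg3 lie in introns 1 and 2, apart from 1 whole-brain peak in intron 3. The 6 whole-brain peaks of Erbb4 and its hippocampal peak lie in intron 1, and Nrg1 is empty.

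Adgrb3 and Lrrtm4, 2 of the 3 long genes nearest to Nrg3 in whole-brain peak density, encode surface proteins of neuronal synapses. Adgrb3, an adhesion G protein-coupled receptor, held 38 peaks in whole brain and 1 in hippocampus (4.99 per 100 kb in whole brain). Lrrtm4, a postsynaptic leucine-rich repeat protein, held 43 and 1 peaks (5.43 per 100 kb). With 5 peaks in hippocampus, Nrg3 had more there than either of these genes. It did not have the most of the long genes there, since Csmd1 held 9 and Syt1 held 6, and Dlg2 and Kcnip4 also held 5. The nearest genes to Erbb4 were Iqschfp with 4 and 1 peaks, Nbea with 3 and 0, and Plcb1 with 4 and 0, at 0.545, 0.537 and 0.580 whole-brain peaks per 100 kb. Nbea encodes neurobeachin, a trafficking protein of neurons, and Plcb1 a phospholipase C.

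Fold changes of the Nrg3 peaks were like those of the list as a whole. In whole brain the log2 fold change over input ran from 2.04 to 4.16 with a median of 2.69 over 56 peaks, beside a median of 2.55 over the 1994 peaks outside the member genes. The −log10 p of these peaks, for eCLIP against input, ran from 2.82 to 21.1, with a median of 4.59 beside 4.31. The lists admit a peak at a log2 fold change of 2 and a −log10 IDR of 2, where IDR is the irreproducible discovery rate over the 2 replicates. Peaks 29 and 30 of Nrg3 stood just inside the first of these, at 2.04 and 2.07. Peak 45 had the highest fold change of the gene (4.16, −log10 p 12.5), and peak 44, 252 nt before it, had the highest −log10 p (3.89, −log10 p 21.1). Peaks 55, 56, 23 and 47 followed at 3.87, 3.70, 3.55 and 3.54. Of these 6 peaks, 44, 45 and 47 lie close together in intron 2, from 569 to 578 kb from the gene start. Peaks 23, 55 and 56 lie apart from them, at 321, 735 and 828 kb in introns 1, 2 and 3.

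All 56 whole-brain peaks of Nrg3 were intronic, and none lay near an exon. The centre of each was outside the exons of all 4 annotated transcripts (100%, interval 93.6 to 100.0). The closest, peak 1, lay 6465 nt from the nearest exon, and the median distance was 101702 nt, so 0 of 56 peaks lay within 500 nt of an exon (0%, which allows up to 6.38%). In Erbb4 the distances ran from 58520 to 138654 nt, also with 0 of 6 within 500 nt. Introns of the longest transcript make up 1100 of the 1104 kb of Nrg3 and 1064 of the 1076 kb of Erbb4. Nearly all positions of these genes are thus intronic, and the share of positions within 500 nt of an exon was not computed.

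Within Nrg3 the peaks were set unevenly among the introns. By the longest transcript, Nrg3-201, with 10 exons and 9 introns, intron 1 (460 kb) takes up 41.7% of the gene and held 24 of 56 peaks (42.9%, interval 29.7 to 56.8). Intron 2 (344 kb, 31.1% of the gene) held 31 peaks (55.4%, interval 41.5 to 68.7), which is 9.02 per 100 kb, beside 5.22 per 100 kb in intron 1. Intron 3 (159 kb, 14.4% of the gene) held 1 peak (1.79%, interval 0.0452 to 9.55). Introns 4 to 9, which together make up 138 kb or 12.5% of the gene, held 0 peaks (0%, interval 0 to 6.38). Peaks thus stopped 828 kb from the start of the gene, and the last 276 kb of the transcribed span carried none in either tissue. Peaks of 1 gene are not independent of each other, since neighbours can come from 1 stretch of bound RNA.

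Many Nrg3 peaks stood next to another. Of the 55 gaps between neighbouring whole-brain peak centres, 22 were shorter than 1 kb (40.0%, interval 27.0 to 54.1) and 33 shorter than 5 kb (60.0%, interval 45.9 to 73.0). The shortest gap was 65 nt, the median 2315 nt and the longest 124 kb. Centres of peaks 4 and 5, 16 and 17, and 20 and 21 were 73, 65 and 79 nt apart. The sequence within 50 nt of such centres overlaps, so some tetramers are counted for more than 1 peak. Joining neighbours closer than 5 kb left 23 groups, of which 6 held at least 4 peaks and together 37 of the 56. The most crowded stretch held 11 peaks in 14.6 kb of intron 2, with log2 fold changes from 2.04 to 3.05. Further along the gene, after the lone peak 38, came 8 peaks in 7.77 kb, from 2.13 to 4.16, which include peaks 44 and 45. In intron 1 there were 6 peaks in 1.17 kb at 320 kb from the gene start, 4 in 0.775 kb at 260 kb and 4 in 1.57 kb at 70.2 kb. Tetramer density differed among these groups, with 6.38 starts per 100 positions at the 4 peaks near 260 kb and also 6.38 at the 4 near 70.2 kb, 4.21 at the 8 peaks, 3.74 at the 6 peaks near 320 kb, and 2.41 in the 11-peak stretch, whose flanks had 1.99.

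A part of Nrg3 with many of its peaks lies opposite an antisense gene. Of the Nrg3 peaks, 19 in the 2 lists together fell in the span of Nrg3os, an antisense transcript annotated on the plus strand, and 0 peaks were called on that strand there. No peak of either list lay on the opposite strand anywhere in the 4 member genes. The peak lists carry strand, so these peaks are placed on the Nrg3 strand by the file itself.

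Tetramers were concentrated at the whole-brain peaks of Nrg3. Windows reaching 50 nt to each side of the peak centre held 3.92 starts per 100 positions, against 2.08 in flanks 450 to 550 nt away on both sides, a difference of 1.84 ± 2.57 (SD over 56 peaks of 1 gene). The density was higher at the peak than in its flanks for 42 peaks and lower for 10. The 1994 whole-brain peaks outside the member genes gave 3.59 at peaks and 1.79 in flanks, so the excess at Nrg3 peaks (1.84) was close to that of the list (1.80). At least 1 tetramer was present in 51 of 56 windows (91.1%, interval 80.4 to 97.0), against 83.4% of the other peaks (81.7 to 85.0). A pair of tetramers at least 15 nt apart was present in 44 of 56 windows (78.6%, interval 65.6 to 88.4), against 65.6% (63.5 to 67.7) of the other peaks. Base composition moved with these values. Windows at Nrg3 peaks were 68.7% A or U and their flanks 65.3%, and windows at the other peaks were 63.1%.

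Of all 4-base words at the Nrg3 whole-brain peaks, UAAA had the greatest excess over the flanks. It started at 2.33 of every 100 positions at peaks and 1.15 in flanks (128 starts at peaks against 126 in the 2 flanks together). AUAA and AAUA came next, at 2.11 and 2.15 per 100 positions at peaks against 1.00 and 1.1 in flanks. UUAA, the other form of the tetramer, was the 7th, at 1.59 against 0.929. These words overlap one another in runs of A and U. The 12 Nrg3 peaks of log2 fold change 3 or more had a difference of 2.93 starts per 100 positions between peaks and flanks, beside 1.84 over all 56. Across the 56 peaks the number of tetramers in the window and the log2 fold change went together only weakly (Pearson's r 0.20, Spearman's rho 0.27, both described without a test because the peaks share libraries and gene).

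The tetramer maximum of the whole-brain Nrg3 peaks lay before the peak centre. In a running mean over 51 nt, the density around Nrg3 peaks was highest 60 nt upstream of the centre, at 5.08 starts per 100 positions, and was 3.61 at the centre. For the 6 Erbb4 peaks the highest value was 8.17, at 90 nt upstream, with 2.61 at the centre. A further Erbb4 maximum of 6.54 lay 70 nt downstream, so that curve rose on both sides of the centre. The 5 hippocampal Nrg3 peaks went the other way, with their highest value, 7.45, at 150 nt downstream and 3.14 at the centre. Windows placed on the 5′ end of the peak in place of its centre gave 4.45 starts per 100 positions for Nrg3, against 2.00 in flanks. In Erbb4 the 5′-end windows gave 5.61, against 2.89 in flanks, while windows on the centre gave 3.06 against 2.72. The 5′ end is the side on which reads of this method stop at the cross-linked base. The Erbb4 difference between peaks and flanks was thus 2.72 on the 5′ end and 0.34 on the centre, with 3 and 2 of the 6 peaks higher than their flanks.

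**Figure D2:**
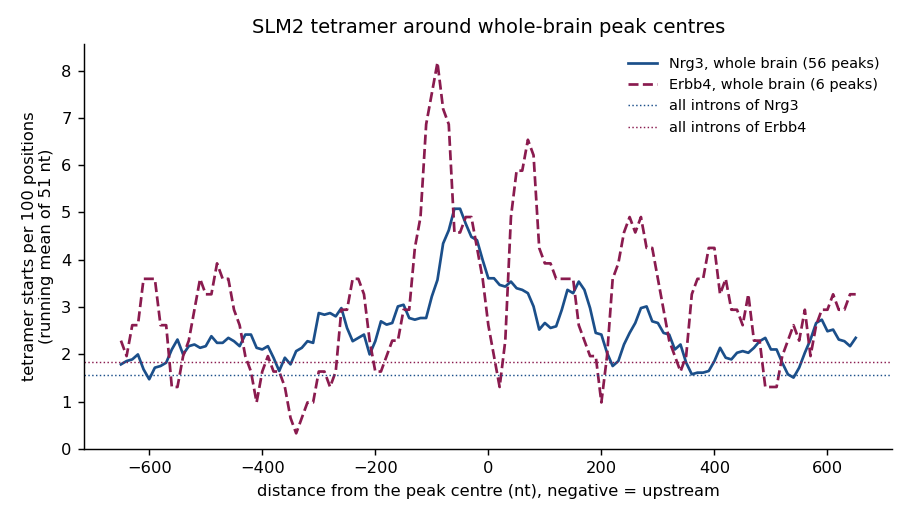
Tetramer starts per 100 positions (running mean of 51 nt) are drawn against the distance from the centre of whole-brain peaks in nt, upstream to the left, for 56 peaks of Nrg3 and 6 of Erbb4; dotted lines give the density over all introns of each gene. The Nrg3 curve is highest at 5.08, 60 nt before the centre, above the 1.57 of its introns, and the Erbb4 curve is uneven with so few peaks.

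Peaks of Nrg3 without the tetramer in their window were few. They were peaks 29, 31, 32, 45 and 46 of whole brain and peak 3 of hippocampus, all but the last in the crowded part of intron 2. Of these, peak 45 had 12 starts and peaks 29, 31 and 32 had 2, 1 and 1 in the window on the 5′ end, and peak 46 had 0. The log2 fold changes were 4.16 for peak 45, 2.57 for peak 46 and 2.04 to 2.22 for the other 3 in whole brain. Sequence set in lower case as repeats in the assembly made up over 50% of 6 of the 56 peaks (10.7%, interval 4.03 to 21.9), beside 14.0% of the other whole-brain peaks. A match of 10 nt or more to the sequencing adaptor was present in 0 of 69 member peaks, beside 19 of 1994 and 7 of 172 other peaks.

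**Figure D3:**
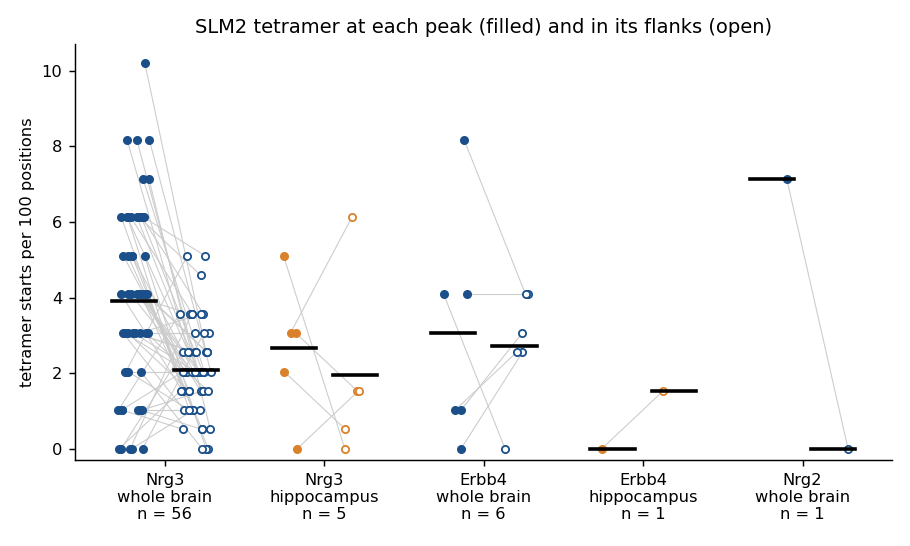
Each filled point is the tetramer density (starts per 100 positions) in the window within 50 nt of the centre of 1 peak and the open point joined to it is that of its flanks; bars are means, blue is whole brain and orange hippocampus. For Nrg3 in whole brain the bars stand at 3.92 at peaks and 2.08 in flanks, and for Erbb4 at 3.06 and 2.72 with wide overlap.

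Erbb4 showed few peaks, all of them in intron 1 (367 kb, 34.1% of the gene) and between 63.4 and 309 kb from the gene start. Their log2 fold changes were 2.85, 3.71, 2.77, 2.85, 2.91 and 3.15 for peaks 1 to 6, with −log10 p of 7.81, 4.78, 4.68, 3.46, 3.12 and 3.29. All 6 were thus above the median fold change of the peaks outside the member genes (2.55), while peaks 1, 2 and 3 were above their median −log10 p (4.31). Tetramer starts in the centred windows numbered 1, 0, 1, 4, 4 and 8, against 6, 5, 5, 8, 0 and 8 in the 2 flanks together. Repeat-masked sequence made up over 50% of 3 of the 6 peaks (50.0%, interval 11.8 to 88.2), beside 6 of 56 in Nrg3. No pair of neighbours was closer than 12738 nt. The highest fold change belonged to peak 2, which was 67.7% repeat-masked, and the hippocampal peak that overlaps it was 90.5% repeat-masked. The part of the repeats in the signal there was not tested. Without this site Erbb4 has 5 whole-brain peaks and 0 hippocampal peaks.

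Erbb4, with few peaks, had more intronic tetramers than Nrg3. Over all intronic bases, Erbb4 had 1.84 starts per 100 positions, Nrg3 1.57, Nrg1 1.42 and Nrg2 0.768. Introns were then tiled with windows of the same width, and a window with at least 4 starts was called motif-dense. There were 162 motif-dense windows per 100 kb of intron in Erbb4, 114 in Nrg3, 97.3 in Nrg1 and 28.9 in Nrg2. A whole-brain peak centre fell in 27 of 1253 such windows of Nrg3 (2.15%, interval 1.42 to 3.12). In Erbb4 it fell in 4 of 1720 (0.233%, interval 0.0634 to 0.594) and in Nrg1 in 0 of 1035 (0%, interval 0 to 0.356). Nrg3 thus had 0.704 times the dense windows of Erbb4 per length, and 9.27 times the share of them with a peak. The ratio of shares rests on 4 windows of Erbb4 and depended on where the tiles began: it was 18.9 with tiles shifted by 50 nt (2.23% in Nrg3 against 0.118% in Erbb4). How much unspliced RNA of each gene was present was not measured in the peak lists, and its part in these differences was not tested. In bulk tissue, a gene used in few cells and a gene used at a low level in many cannot be told apart.

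Within Nrg3 the share of windows with a peak grew with tetramer content. It was 0.167% of 3596 windows with 0 starts, 0.185% of 2704 with 1, 0.238% of 2100 with 2, and 0.810% of 1235 with 3. It reached 1.22% of 986 windows with 4 or 5 starts (interval 0.630 to 2.12) and 5.62% of 267 windows with 6 or more (interval 3.18 to 9.10). Peaks stand in groups along this 1 gene, so windows are not independent of each other. The intervals therefore do not test the difference between classes. Even there, 252 of the 267 windows held no peak centre. In intron 2 of Nrg3, 12% of windows were motif-dense, beside 11% in intron 1. The share was 10.4% in intron 3, which held 1 peak, and 13.1% in intron 4, which held 0. The part of tetramer content in the difference between introns was not tested.

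**Figure D4:**
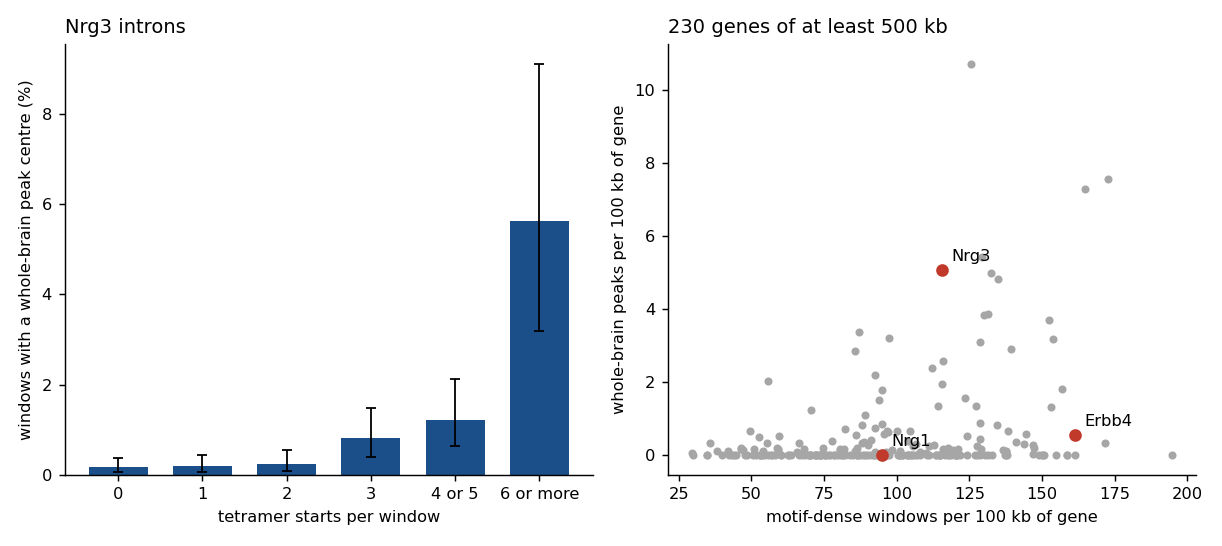
Left, the percentage of tiled intron windows of Nrg3 that hold a whole-brain peak centre, by the number of tetramer starts in the window, with exact 95% intervals; right, whole-brain peaks per 100 kb against motif-dense windows per 100 kb for 230 genes of at least 500 kb. The bars reach 5.62% at 6 or more starts, and Erbb4 lies to the right of Nrg3 (161 against 116 dense windows per 100 kb of gene) but far below it.

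Ranked among all long genes, Nrg3 and Erbb4 showed the same contrast, drawn from the same peaks and nearly the same sequence. With the whole gene span tiled, Erbb4 ranked the 5th of 230 genes in motif-dense windows per 100 kb, Nrg3 the 70th and Nrg1 the 119th. In the share of dense windows with a whole-brain peak, Nrg3 ranked the 3rd at 2.43% (31 of 1277 windows), after Syt1, a calcium sensor of synaptic vesicles (4.35%), and Cadm2, an adhesion molecule (2.94%). Erbb4 ranked the 64th at 0.173%. Over the 230 genes, peaks per 100 kb went weakly with motif-dense windows per 100 kb (Pearson's r 0.30, Spearman's rho 0.24, described without a test, since genes share libraries and base composition).

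In hippocampus, the list held 5 peaks of Nrg3 and 1 of Erbb4. The 5 Nrg3 peaks had log2 fold changes of 2.53, 2.46, 2.76, 2.79 and 2.71, within the range of the whole-brain peaks. Their −log10 p of 1.3, 1.21, 1.71, 1.65 and 1.55, and the 1.70 of the Erbb4 peak, were all below the lowest value of the whole-brain list, 2.82. The median of the other hippocampal peaks was 1.84. Peaks 1 to 4 lay in intron 1, from 9.98 to 139 kb along the gene, and peak 5 in intron 2. Tetramer starts in the centred windows of peaks 1 to 5 numbered 3, 3, 0, 2 and 5, against 3, 12, 3, 1 and 0 in the 2 flanks together, and the mean density was 2.65 at peaks and 1.94 in flanks. The sign of this difference turned with flanks 1000 nt away.

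Of the 6 hippocampal member peaks, 3 overlapped a peak of whole brain by 1 nt or more (50.0%, interval 11.8 to 88.2). Peak 5 of Nrg3 in hippocampus covered all 114 nt of whole-brain peak 44, with centres 1 nt apart, at a log2 fold change of 3.89 in whole brain and 2.71 in hippocampus. Peak 4 lay entirely within whole-brain peak 10, with 176 nt shared, at 2.25 in whole brain and 2.79 in hippocampus. The Erbb4 peak shared 75 nt with whole-brain peak 2, at 3.71 in whole brain and 2.45 in hippocampus. Peak 2 of Nrg3 lay 351 nt from the centre of whole-brain peak 5 without touching it, peak 3 lay 929 nt from the nearest whole-brain peak, and peak 1 lay 2395 nt from it. Fold changes of the tissues come from separately merged lists, and their differences were not tested.

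Nrg2 (ENSMUSG00000060275.13, 180 kb, on chromosome 18) held 1 whole-brain peak and no hippocampal peak, which is 0.556 per 100 kb in whole brain, close to the value of Erbb4. The peak was 80 nt long, with a log2 fold change of 2.45, a −log10 p of 3.52 and a −log10 IDR of 2.29. It lay in intron 1, 54508 nt from the nearest exon. Its window held 7 tetramer starts against 0 in the flanks, in a gene whose introns had the lowest tetramer density of the 4 (0.768 starts per 100 positions). All of the peak (100%) was repeat-masked.

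Nrg1, the founding neuregulin, has 18 annotated transcripts, 12 of them protein-coding. It held no peak in either list, neither on its own strand nor on the other. Intron 1 of its longest transcript alone spans 915 kb, 85.6% of the gene, which is longer than intron 1 of Nrg3 or Erbb4. Of the 230 long genes, 125 likewise held no whole-brain peak. An empty gene says only that no peak passed the thresholds of the merged lists.

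Most other genes of the pathway held no peak. Of 45 genes on a list of ligands, receptors, proteases, scaffolds and effectors, 4 held a peak in whole brain (8.89%) and 2 in hippocampus (4.44%), beside the lower shares of 1.92% and 0.378% of all protein-coding genes, which are not matched to the list in length. Among the other ligands this was Tmeff2, a membrane protein with an EGF-like domain (2 peaks in 287 kb), and 0 of the 3 other receptors, Egfr, Erbb2 and Erbb3, held one. None of the 6 proteases, which include Bace1 and Adam10, did so. The 26 scaffolds and effectors accounted for the rest: Dlg1, Dlg2, Dlg4 and Magi2, which are membrane-associated guanylate kinases, whereas Dlg3 and Magi1 of the same family held 0 peaks in both lists. Dlg2, which encodes PSD-93, held 51 whole-brain peaks, with log2 fold changes from 2.04 to 4.66, and 5 hippocampal peaks, from 2.06 to 2.79. This is 2.59 whole-brain peaks per 100 kb over 1973 kb, below the 5.07 of Nrg3. Magi2 held 4 whole-brain peaks in 1478 kb (2.37 to 3.17) and Dlg1, which encodes SAP97, held 3 in 212 kb (2.18 to 2.66). Dlg4, which encodes PSD-95, a partner of ErbB4 at excitatory synapses, held 0 in whole brain and 1 hippocampal peak at 2.09. The tetramer density at whole-brain peaks of Dlg2 was 4.26 starts per 100 positions, against 1.92 in flanks, like the 3.92 and 2.08 of Nrg3.

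Peaks do not give RNA levels, so the cell types of the tissue could not be checked by level, and only the binding of their marker genes is given. Of 20 markers, 2 held a whole-brain peak: Mbp, of oligodendrocyte myelin, with 13, and Slc1a2, an astrocyte glutamate transporter, with 1. Camk2a, of excitatory neurons, held 1 hippocampal peak. None of 7 interneuron markers, which include Gad1, Gad2 and Lhx6, held a peak in either list, as was so for most genes, since 1.92% of all protein-coding genes held one in whole brain and 0.378% in hippocampus. With so few genes bound, these counts say nothing about which cell types were present.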

How the data were processed

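Per the methods, adapters were removed with cutadapt 3.4, alignment to mm10 was by STAR 2.7.9, reads with the same molecular identifier were collapsed by UMI-tools 1.1.1, and CLIPper peaks of the 2 replicates were merged by IDR for each tissue. The deposited lists give each peak a log2 fold change of eCLIP over input, a −log10 p for that comparison and, as a score, the −log10 IDR, all computed by the authors. They have no column names, and these meanings come from the heading of the authors' supplementary peak table. Library depths, tracks and Slm2 KO libraries were not analysed here, and 1 of the genes and the sequence of 1 site that these rules pick are not reported here.

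Peaks were assigned to GENCODE vM21 genes by centre and strand, and sequence was read from soft-masked GRCm38. Tetramers were counted at 98 start positions of the window within 50 nt of the centre and of each flank. Members and gene lists were chosen with earlier results of these data known. The text names the 4 member genes, genes of the pathway list that hold a peak, and the 3 genes of at least 500 kb closest to Nrg3 and to Erbb4 in whole-brain peaks per 100 kb. Syt1, Cadm2, Csmd1, Kcnip4, marker genes and listed genes without peaks were named after their values were seen. Counting was tested on simulated sequence with planted tetramers. Python 3.11.15 was used with numpy 2.4.6, pandas 2.3.3, scipy 1.17.1, pysam 0.24.0 and matplotlib 3.10.9.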

Additional observations from a re-analysis of the deposited data

How the results depend on the processing

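Counts, shares and densities were recomputed under other settings, and 112 of 142 recomputed values stayed within 1.5 times the count or within the 95% interval of the value given above. Some of these could not have moved, so the tally overstates how stable the results are. Counts of 0 stay at 0 under stricter thresholds, and peaks outside all exons stay outside when fewer exons are used. Peak counts fell most under stricter thresholds. With the log2 fold change set to 3 or more, whole brain kept 12 Nrg3, 2 Erbb4 and 0 Nrg2 peaks, and hippocampus 0 Nrg3 and 0 Erbb4 peaks. At a −log10 IDR of at least 3, whole brain kept 10 Nrg3, 1 Erbb4 and 0 Nrg2 peaks. Hippocampus kept 3 Nrg3 peaks and its 1 Erbb4 peak, which had a −log10 IDR of 3.21. At a −log10 p of at least 2, hippocampus kept 0 Nrg3 and 0 Erbb4 peaks, and all whole-brain peaks remained. More than 20% masked sequence was present in 28 Nrg3 and 5 Erbb4 peaks of whole brain and 3 Nrg3 peaks of hippocampus, where 1 pair of Nrg3 neighbours was closer than 5 kb.

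The tetramer difference between peaks and flanks in Nrg3 of whole brain was 2.44 at the 5′ end, 2.93 at a fold change of at least 3 and 0.95 over the 7 peaks whose windows and flanks were all at most 20% masked. At the 5′ end it was 2.72 in Erbb4 of whole brain. With flanks 1000 nt away it turned to -0.10 in Nrg3 of hippocampus (0.71 above) and was -2.04 at the hippocampal Erbb4 peak (-1.53 above). Without masked bases the intronic density was 1.33 in Nrg1, 0.68 in Nrg2, 1.47 in Nrg3 and 1.75 in Erbb4, and without bases near peaks 1.54 in Nrg3. Settings chosen after seeing the data were these. With at least 6 starts per dense window, 5.62% of such windows of Nrg3 held a peak (15 of 267). The share in Nrg2 was 16.7%, but it rests on 1 peak, all of it repeat-masked. Nrg2 had only 3 windows with 6 starts, 2 with 7 and 1 with 8 or more. With tiles shifted by 50 nt, 0% of motif-dense windows of Nrg2 held a peak. Without the site that Erbb4 shares between tissues, hippocampus has 0 Erbb4 peaks. Apart from the settings themselves, the causes of these shifts were not tested. No paired analysis was possible because each tissue has 1 merged list and no test was made. With 1 list per tissue, neither the spread between replicates nor the part of depth in the tissue difference can be given.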
